A study of Arabidopsis thaliana with 6 samples.

Results

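The Aux/IAA genes encode short-lived nuclear repressors of auxin responses. The 10 genes described here, out of 27444 protein-coding nuclear genes of Arabidopsis thaliana, are IAA1 (AT4G14560), IAA2 (AT3G23030), IAA3 (AT1G04240), IAA4 (AT5G43700), IAA7 (AT3G23050), IAA14 (AT4G14550), IAA16 (AT3G04730), IAA17 (AT1G04250), IAA19 (AT3G15540) and IAA29 (AT4G32280). A PIF1 peak was counted for a gene where its summit lay inside the gene or within 3000 bp of either end. By this rule 58 of the 25032 peaks in the 3 deposited lists belonged to the 10 genes, with 9, 28 and 21 of them in lists 1, 2 and 3. No peak could belong to more than 1 of the genes, since their windows do not overlap.

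Chromatin came from whole 3-day-old seedlings of a transgenic line, P1M, which overexpresses PIF1 carrying a Myc epitope tag. Wild-type seedlings taken through the same anti-Myc chromatin immunoprecipitation gave the background. All seedlings received 3 h of white light and then 3 d of darkness at 21 °C, and there were 3 PIF1 and 3 wild-type libraries. Each library was made from DNA pooled over several immunoprecipitations, and the promoter that drives the transgene is not given in the sources used here.

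In the absence of auxin, Aux/IAA proteins bind auxin response factors (ARFs) and hold target genes off by recruiting TOPLESS corepressors. Auxin joins an Aux/IAA protein to an F-box receptor of the TIR1/AFB group, which leads to its degradation and frees the ARFs. Many Aux/IAA genes are themselves induced by auxin, so that the repressors feed back on the response. PIF1 is a basic helix-loop-helix factor that phytochrome removes in light and that restrains light responses in darkness.

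The lists differed in depth. After filtering, PIF1 library 1 kept 14209334 tags, library 2 kept 5825479 and library 3 kept 5721184, against 17323572, 6134032 and 7435352 tags in their wild-type partners. List 1 was the shortest, with 4578 peaks, and lists 2 and 3 held 12776 and 7678. Fold enrichment is the authors' ratio of PIF1 tags to local wild-type background. It was used to describe and rank peaks within a list and, in the last section, as a fixed cutoff. Its percentile within the list is therefore given beside it, and values in brackets after a peak or region are fold enrichments. The false discovery rate that the authors' peak caller gave, made by swapping PIF1 and wild type, was 100% for all 4578 peaks of list 1, and so for the 9 at Aux/IAA genes. It was 5% or less for 11 of the 28 Aux/IAA peaks of list 2, against 1350 of all 12776. In list 3 it was 5% or less for 0 of the 21 Aux/IAA peaks, the lowest being 10.19%, against 5 of all 7678.

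All 10 Aux/IAA genes had a PIF1 peak in at least 2 lists, and 8 of them had one in all 3. Of all protein-coding genes, 40.5% had a peak in at least 2 lists by the same rule, 13.6% had one in all 3, and 73.3% had one in at least 1. By list, 8, 10 and 10 of the 10 genes had a peak in lists 1, 2 and 3, against 26.3%, 59.5% and 41.6% of all genes. IAA4 and IAA17 were the genes without a peak in list 1. The 10 genes had a median of 6 peaks over the lists and a median length of 1634 bp, against 1 peak and 2078 bp for all genes. The counts are a description, since the genes were chosen with earlier results of these data known, and no test was made.

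**Figure D1:**
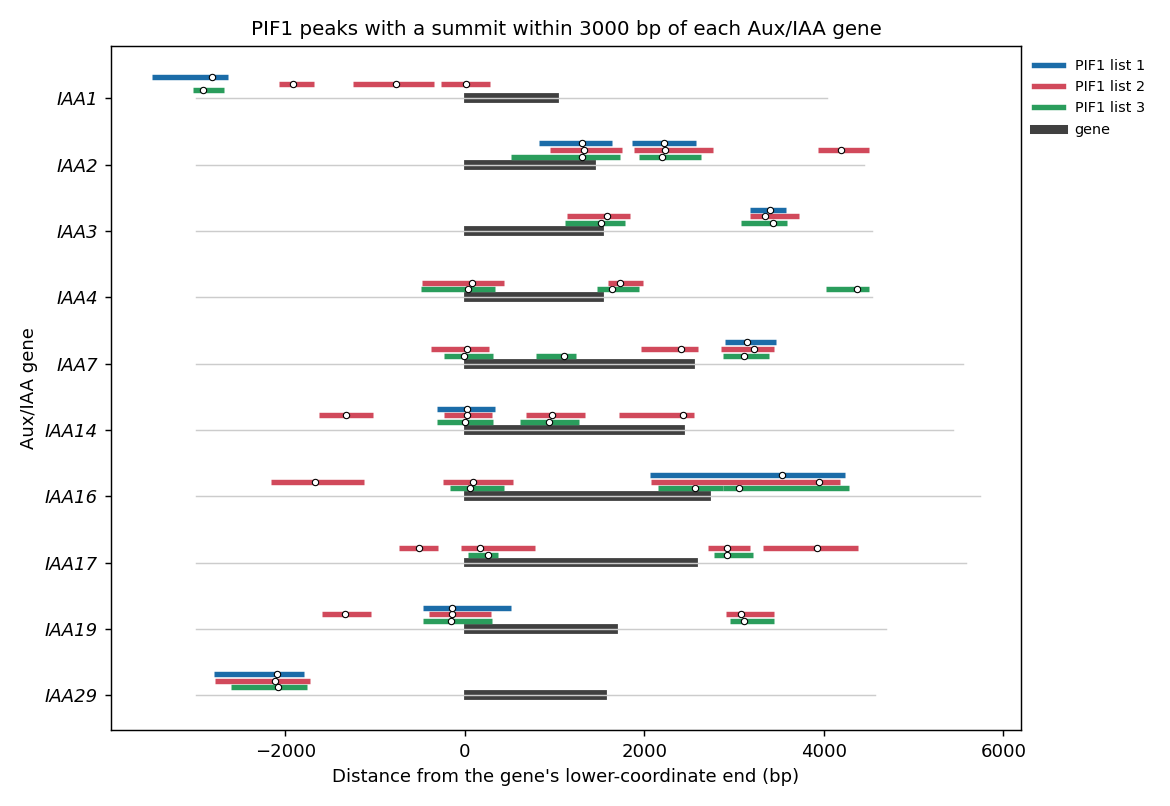
PIF1 peaks at the 10 Aux/IAA genes. Each row is a gene (dark bar), coloured bars are the peaks of PIF1 lists 1, 2 and 3, open circles are their summits, and the x axis is the distance in bp from the gene's lower-coordinate end (strand is not shown). Peaks of all 3 lists overlap at IAA2, IAA3, IAA7, IAA14, IAA16, IAA19 and IAA29, whereas IAA4 and IAA17 have no list 1 peak.

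A stricter count asked whether the lists had the same peak and not merely some peak at the gene. Peaks sharing 1 bp or more across lists were joined into regions. The 58 peaks fell into 31 regions, of which 8 were held by all 3 lists, 10 by 2 lists and 13 by 1 list. The 8 regions lay at 7 genes, with 2 at IAA2 and 1 each at IAA3, IAA7, IAA14, IAA16, IAA19 and IAA29. Of all protein-coding genes, 9.51% had such a region within 3000 bp. IAA1 dropped out of this count because its list 2 peaks did not overlap those of lists 1 and 3. Every gene of the set had a region of at least 2 lists, against 30.0% of all genes.

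The Aux/IAA peaks stood high in their lists. Their median fold enrichments were 4.77, 8.16 and 5.38 in lists 1, 2 and 3, against 2.71, 5.29 and 3.87 for all peaks, and 8 of 9, 22 of 28 and 17 of 21 exceeded the list's median. All 9 peaks of list 1 lay in a region shared with another list, as did 60.7% and 90.5% of those in lists 2 and 3. For all peaks these shares were 46.8%, 38.3% and 58.2%. Regions of all 3 lists were strong throughout the genome, however, with a median mean percentile of 84.0 over 1390 regions. The 8 Aux/IAA regions had a median of 94.2, and 6 of them lay above the genome-wide median.

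**Figure D2:**
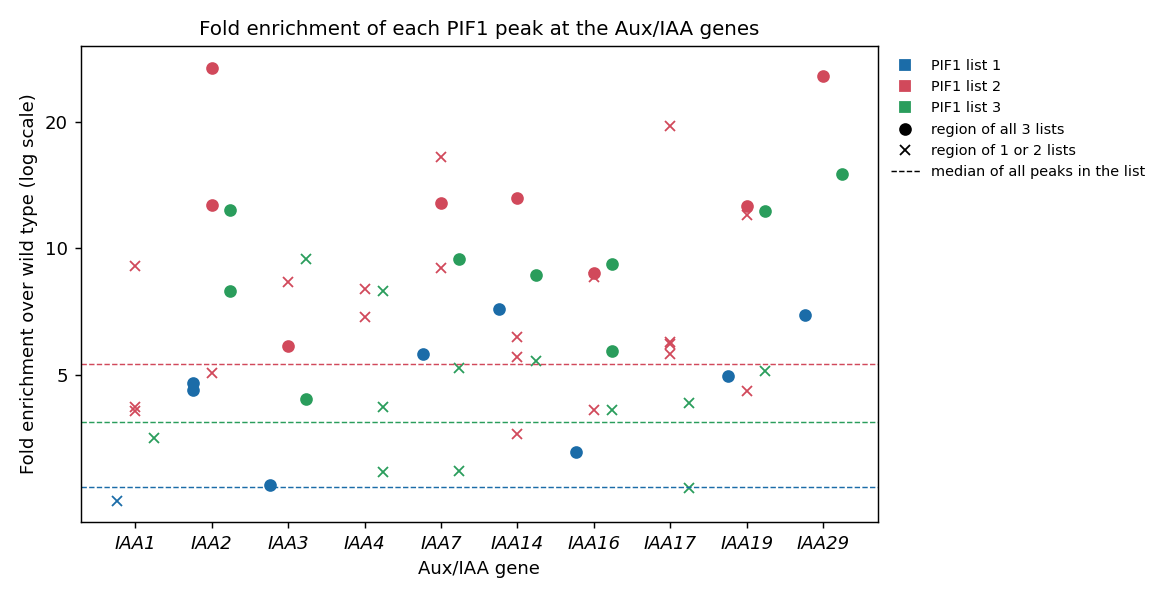
Fold enrichment over wild type (log axis) of every PIF1 peak at the 10 Aux/IAA genes, coloured by list. Filled circles belong to regions of all 3 lists, crosses to regions of 1 or 2 lists, and dashed lines mark the median of all peaks in each list (2.71, 5.29 and 3.87). The highest peaks are those of IAA2 (26.9) and IAA29 (25.75) in list 2.

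IAA29, an Aux/IAA gene induced by plant shade, had the region of highest mean percentile in the set and no other. The region lay at chromosome 4, 15580541 to 15581602 (TAIR10), and in lists 1, 2 and 3 it was enriched 6.95, 25.75 and 15.03-fold. These stood at percentiles 97.7, 99.1 and 98.9, a mean of 98.6 ± 0.757 (SD, n = 3). The 3 lists thus placed it alike, and 95.0% of the regions held by all 3 lists had a lower mean percentile. A region of IAA14 stood slightly higher in list 1 (percentile 97.9), and a region of IAA2 in list 2 (99.2). The IAA29 region held 369, 406 and 221 tags, or 26.0, 69.7 and 38.6 tags per 1000000 filtered tags. Its summits lay 2092, 2120 and 2081 bp from IAA29 and nearer to AT4G32272, at 1344, 1316 and 1355 bp. It lay between these neighbouring genes, and assignment by nearest gene alone gave no peak to IAA29. The next peak outward was a list 2 peak 3340 bp from the gene, just outside the window, with a fold enrichment of 5.52.

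IAA19 (MASSUGU 2), in which dominant mutations impair hypocotyl phototropism, had a region whose summits fell within 5 bp of each other. It lay at chromosome 3, 5263532 to 5264514, with summits 145, 147 and 150 bp outside the gene in lists 1, 2 and 3. Fold enrichments were 4.98, 12.63 and 12.25, at percentiles 92.1, 93.3 and 97.8. For comparison, the median summit range was 46 bp over the 1211 regions of all 3 lists with 1 peak a list. A further region lay on the other side of the gene, at 5266911 to 5267444, in lists 2 and 3 (12.01 and 5.1). That region was inside AT3G15548 and 1380 and 1417 bp from IAA19. List 2 alone held a weaker peak 1338 bp from the gene on the side of the first region (4.58, percentile 32.3).

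IAA2 was the gene with 2 regions held by all 3 lists. Its inner region, at chromosome 3, 8181157 to 8182392, was enriched 4.77, 12.67 and 12.34-fold in lists 1, 2 and 3. The summits fell inside the gene, 149, 127 and 145 bp from the end that faces IAA7. The outer region, at 8182505 to 8183412, lay 774, 781 and 742 bp beyond the same end, and its fold enrichments were 4.6, 26.9 and 7.92. The 26.9 of list 2 was the highest fold enrichment at any of the 10 genes, at percentile 99.2, while lists 1 and 3 placed this region at 89.5 and 93.5. The mean percentiles of the inner and outer regions were 94.0 ± 3.49 and 94.1 ± 4.87 (SD, n = 3) and differed by less than the spread between lists. A further peak, in list 2 only, lay 2747 bp out on the same side (5.05).

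IAA14 (SOLITARY-ROOT), whose stabilised form blocks lateral root formation, had a region across one of its ends. It lay at chromosome 4, 8347512 to 8348162, with summits 21, 29 and 7 bp inside the gene in lists 1, 2 and 3. Fold enrichments were 7.15, 13.2 and 8.62, and the 7.15 was the highest value of list 1 among the 10 genes, at percentile 97.9. This end faced away from IAA1. A region of lists 2 and 3 lay deeper in the gene, at 8348439 to 8349165, and its rank was unlike in the 2 lists, at 3.62 and 5.38-fold and percentiles 8.2 and 81.4. List 2 alone had a peak at the gene's other end (6.15). It alone also had a peak 1320 bp outside the end that faces away from IAA1 (5.5), nearer to NF-YB3, at 1178 bp.

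IAA7 (AXR2), named for auxin-resistant dominant mutants, had peaks at both of its ends. The region beyond the end that faces away from IAA2 was held by all 3 lists, at chromosome 3, 8197460 to 8198067. Its summits lay 584, 664 and 557 bp outside the gene in lists 1, 2 and 3, with fold enrichments of 5.6, 12.84 and 9.41. All were high in their lists, at percentiles 94.6, 93.6 and 95.7. At the end that faces IAA2, a region at 8194231 to 8194916 was held by lists 2 and 3 only, at 16.52 and 5.19-fold. The 16.52 exceeded the list 2 value of the region held by all 3 lists. Further peaks inside the gene were found in list 3 alone (2.95) and in list 2 alone (8.97).

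IAA16, in which a gain-of-function mutation also lowers auxin responses, had a broad region held by all 3 lists, but the summits did not coincide. The region covered 2211 bp at chromosome 3, 1290222 to 1292432. List 1 and list 2 each had 1 long peak there, with fold enrichments of 3.27 and 8.73, and list 3 had 2 peaks of 9.18 and 5.68. The summits spread over 1380 bp, between 175 bp inside IAA16 and 1205 bp outside it. Those of lists 1 and 2 were nearer to RALFL21, at 667 and 263 bp, than to IAA16, at 801 and 1205 bp. With summits required to lie within 200 bp of each other, IAA16 no longer had a region of all 3 lists. At its other end a region at 1287914 to 1288689 was held by lists 2 and 3 (8.56 and 4.13), with summits 91 and 55 bp inside the gene. A list 2 peak inside PR4 lay 1665 bp from IAA16 (4.12).

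IAA3 (SHY2), found through a dominant suppressor of a phytochrome-chromophore mutant, had the weakest region of the 8. It lay at chromosome 1, 1131230 to 1131870, with summits 1865, 1799 and 1893 bp from the gene in lists 1, 2 and 3. Fold enrichments were 2.74, 5.86 and 4.37, close to the medians of the lists, and 14.3% of regions held by all 3 lists had a lower mean percentile. A stronger region at 1129261 to 1129986 straddled the end of IAA3 in lists 2 and 3. Its fold enrichments there were 8.33 and 9.41, at percentiles 81.9 and 95.7, and list 1 had no peak in it.

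IAA17 (AXR3), another gene of auxin-resistant dominant mutants, had no peak in list 1. Its leading region lay at chromosome 1, 1138785 to 1139289, and the summits of lists 2 and 3 were 3 bp apart, 334 and 337 bp outside the gene. Fold enrichments were 19.51 and 4.29, at percentiles 97.9 and 63.5, so that the lists placed the summit alike and the height not. A region inside the other end had 5.99 and 2.69 in lists 2 and 3. List 2 alone held peaks 512 bp outside that end (5.6) and 1335 bp beyond the first (5.91), the last nearer to MPI7.

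IAA4, an early auxin-induced gene, likewise lacked a list 1 peak. A region at chromosome 5, 17549688 to 17550613, straddled one end of the gene and was enriched 7.99 and 7.9-fold in lists 2 and 3. These stood at percentiles 80.1 and 93.3. A region at 17551651 to 17552161 had its summits just beyond the other end (6.86 and 4.2), in the gap to AT5G43710. The list 2 summit was 192 bp from AT5G43710 and 196 bp from IAA4, and the list 3 summit was 281 and 107 bp away. A list 3 peak inside AT5G43710 lay 2832 bp from IAA4 (2.93).

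IAA1 (AXR5), an early auxin-induced gene named for an auxin-resistant mutant, had peaks in all 3 lists but at different places. Lists 1 and 3 shared a weak region at chromosome 4, 8357511 to 8358362, with fold enrichments of 2.51 and 3.53, both below their list's median. Its summits lay 2821 and 2916 bp from the gene, close to the limit of the window. List 2 had 3 peaks that neither of the others had, of which the one 771 bp outside the gene was the strongest (9.06, percentile 85.2). The other two lay 1918 bp outside (4.09) and 17 bp inside the gene (4.2). No position at IAA1 was thus held by all 3 lists.

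Ordered by mean percentile, the regions of all 3 lists ran IAA29 (98.6 ± 0.757), IAA14 (95.5 ± 2.1), IAA7 (94.6 ± 1.05), IAA19 (94.4 ± 3.0), the outer and inner regions of IAA2, IAA16 (83.6 ± 11.9) and IAA3 (59.3 ± 6.89). Errors are SD over 3 lists. From IAA14 to IAA2, neighbours in this order differed by less than their spread. IAA3 lay below the other 7 regions in every list.

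The 3 neighbouring pairs were examined for which gene each peak was nearer to. Each gap was wider than both windows of 3000 bp together, so none of the 37 peaks could be within 3000 bp of both genes. Each was therefore nearer to the gene whose window held it, and the counts below follow from the windows. No protein-coding gene lay between the genes of any pair. The gap was 10732 bp between IAA14 and IAA1, 12510 bp between IAA2 and IAA7 and 6388 bp between IAA3 and IAA17. Of the 12 peaks of the first pair, 5 were nearer to IAA1 and 7 to IAA14. The second pair had 7 peaks nearer to IAA2 and 7 to IAA7. The third had 5 nearer to IAA3 and 6 to IAA17.

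The peaks within 3000 bp of a gene were also counted within the gaps, with peaks of 1 region in different lists counted separately. In the gap between IAA14 and IAA1, all 4 such peaks were nearer to IAA1. In the gap between IAA2 and IAA7, 4 of 5 were nearer to IAA2, and in that between IAA3 and IAA17, 4 of 5 were nearer to IAA3. The 4 at IAA2 included every peak of its outer region of all 3 lists. Likewise, the 4 at IAA3 included every peak of its region of all 3 lists. The 1 nearer to IAA7 was a list 3 summit 15 bp outside the gene. The list 2 summit of the same region lay 25 bp inside IAA7 and was not counted in the gap. The region of all 3 lists in the last gap lay 4524, 4590 and 4496 bp from IAA17 and so was nearer to IAA3. Beyond the windows, the gaps held 1 further peak each for the first and second pairs. One was a list 3 peak 4658 bp from IAA14 and 6075 bp from IAA1 (3.7), and the other a list 3 peak 5717 bp from IAA2 and 6794 bp from IAA7 (5.04).

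**Figure D3:**
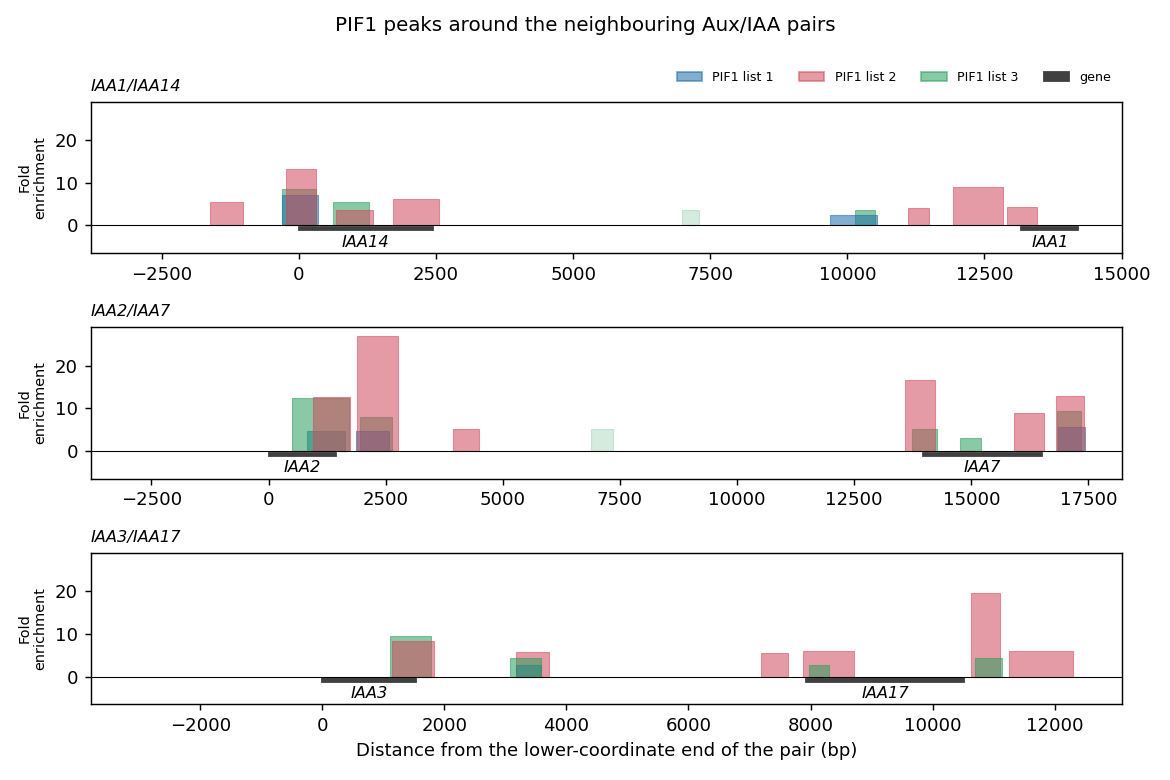
PIF1 peaks around the neighbouring Aux/IAA pairs. Box height is fold enrichment over wild type, box width is the peak, colour is the list, pale boxes lie more than 3000 bp from both genes, and the x axis is the distance in bp from the pair's lower-coordinate end. Outside the gaps only peaks within 3000 bp of a gene are drawn. There is 1 pale box in the first gap, 1 in the second and 0 in the third. The third gap, of 6388 bp, lies almost wholly within 3000 bp of a gene.

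Summits often fell near a gene's end, a property examined after the values were seen. Of the 58 peaks, 24 had their summit within 200 bp of an end of the Aux/IAA gene itself, none of them at IAA29. The share of all genes with a summit so near their own end was not counted. Counting the ends of any protein-coding gene, 44.8% of the 58 summits lay within 200 bp of one, against 30.2% of all 25032 summits. By list the shares were 33.3%, 46.4% and 47.6% at the Aux/IAA genes, against 17.3%, 35.2% and 29.5% over all peaks. These shares are not matched, since the 58 were taken for lying inside or within 3000 bp of 10 short genes. The 25032 were not chosen by nearness to a gene. Of the 8 regions of all 3 lists, 2 were centred inside a gene, 4 up to 1000 bp from the nearest one and 2 further out. Over all 1390 such regions the shares were 28.9%, 45.8% and 25.3%.

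The remaining 19 Aux/IAA genes of the family had counts closer to the genome-wide shares. In all 3 lists a peak was found at 3 of them, IAA9, IAA30 and IAA33, and 10 of 19 had one in at least 2 lists, against 13.6% and 40.5% of all genes. A region held by all 3 lists was found at 1 of the 19, IAA33, against 9.51% of all genes. It lay at chromosome 5, 23267635 to 23268381. Lists 1, 2 and 3 gave it 5.09, 12.14 and 7.28-fold, at percentiles 92.7, 92.7 and 91.5. That region lay 1935, 1959 and 1930 bp from IAA33 and within 79 bp of AT5G57410. IAA30 had a region of lists 1 and 2 across one end (3.81 and 8.33) and a separate list 3 peak (3.53). At IAA9 the peaks of list 1 (2.74 and 2.07) did not overlap those of lists 2 and 3.

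Other relatives had peaks in 2 lists. IAA11, with 17.19 in list 2 and 6.4 in list 3, had the highest fold enrichment among the 19, at a position nearer to ABCB23. IAA8, IAA13 and IAA15 also had peaks in 2 lists, with fold enrichments of at most 8.61, 9.08 and 4.67. At IAA8 and IAA13 no region was held by more than 1 list. IAA18, IAA20 and IAA26 had peaks in lists 2 and 3 too, of at most 4.7, 3.71 and 9.43. Of these, IAA26 had 2 regions of lists 2 and 3. No peak was found at IAA6 or IAA31. The difference between the 10 genes and their 19 relatives was not tested, because the 10 were chosen with these results known.

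**Figure D4:**
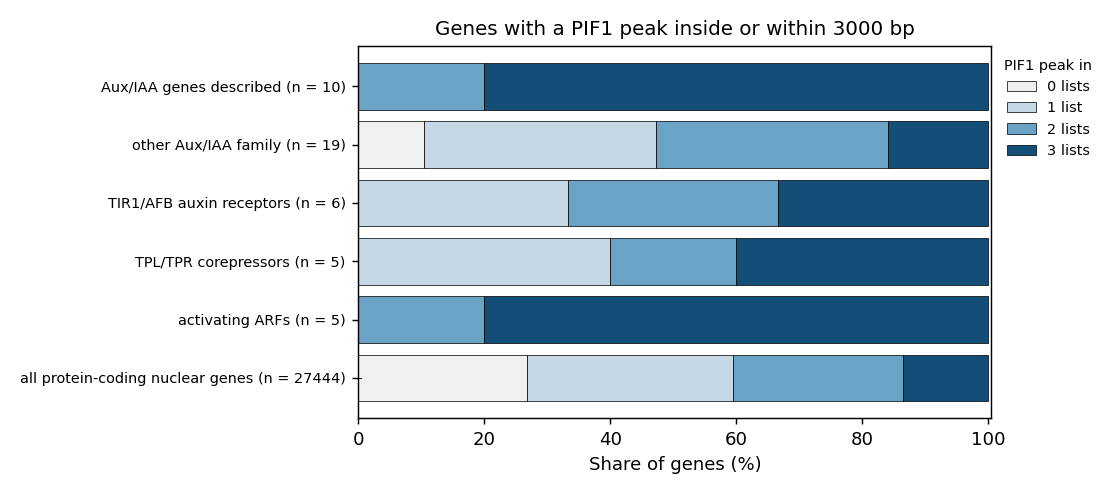
Share of genes (x axis, %) with a PIF1 peak inside or within 3000 bp in 0, 1, 2 or 3 lists, for the 10 Aux/IAA genes described, 4 sets of related genes and all protein-coding nuclear genes. The darkest segment, peaks in all 3 lists, is 80.0% for the 10 Aux/IAA genes, 15.8% for the other Aux/IAA genes, 33.3% for the TIR1/AFB genes, 40.0% for the TPL/TPR genes, 80.0% for the activating ARF genes and 13.6% for all genes.

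The genes of Aux/IAA partners were counted in the same way, beside the 13.6% of all genes with a peak in all 3 lists and the 40.5% with one in at least 2. Of the 6 TIR1/AFB receptor genes, AFB1 and AFB2 (33.3%) had a peak in all 3 lists and TIR1 and AFB3 in 2. The median length of the 6 genes was 2953 bp, against 2078 bp for all genes, so their windows are wider. At AFB2 a region at chromosome 3, 9864975 to 9865784, was enriched 5.0, 17.96 and 10.23-fold in lists 1, 2 and 3, and lay 2183, 2218 and 2307 bp from the gene. At AFB1 a region inside the gene had 4.15, 9.08 and 3.59. These are the F-box proteins that bind Aux/IAA proteins in the presence of auxin.

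Among the 5 corepressor genes, TPL and TPR2 (40.0%) had peaks in all 3 lists, against 13.6% of all genes, and TPR1 had peaks in 2. With a median length of 6336 bp, against 2078 bp for all genes, these genes have wider windows. The region nearest to TPL, at chromosome 1, 5420984 to 5421812, had fold enrichments of 6.34, 16.24 and 11.2, at percentiles 96.8, 96.4 and 97.2. It was higher in its lists than the region of TPR2, which had 3.35, 5.84 and 4.39. TPL encodes TOPLESS, which Aux/IAA proteins recruit through a short repression motif.

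Of the 5 activating ARF genes, ARF5, ARF6, ARF8 and ARF19 had peaks in all 3 lists and ARF7 in 2. Their share of 80.0% in all 3 lists equals that of the 10 Aux/IAA genes, against 13.6% of all genes. These genes are longer than the Aux/IAA genes, with a median of 5167 bp against 1634 bp, so their windows are wider. A region held by all 3 lists was found at ARF6 and at ARF19, against 9.51% of all genes. At ARF6 the region lay outside the gene (3.45, 9.38 and 4.06). At ARF19 it spanned one end of the gene and had at most 2.31, 12.94 and 4.27. At ARF5 and ARF8 the peaks of the lists did not coincide in this way.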

How the data were processed

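Per the submitters' processing notes, the tools were CASAVA 1.8.0, Bowtie 0.12.7 and MACS 1.4.1, with the genome build TAIR10. Peaks were called by the authors without pooling, 1 PIF1 library at a time against its wild-type partner, with a p cutoff of 1e-05 and the smaller library scaled towards the larger, per the file headers. Each deposited list holds, per peak, a tag count, a score (10 times the negative log10 of p), a fold enrichment ratio and a false discovery rate in percent. Per the file headers, 13%, 70% and 66% of PIF1 tags and 24%, 61% and 15% of wild-type tags were redundant in libraries 1, 2 and 3.

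Peaks were placed at start + summit - 1. Genes came from a table of assembly TAIR10.1, whose name differs from that of the build, so distances but none of its coordinates are given. It holds no strand, and no sequence was used. All 45 listed genes matched by locus code. The members and lists were chosen with earlier results of these data known, and the peaks, which are the authors' calls, were given no test. Genes named are all members, listed relatives with peaks in all 3 lists, up to 4 others per list with peaks in 2 (in list order), and genes nearer to a member's peak. IAA6, IAA18, IAA20, IAA26, IAA31 and IAA11's rank were added after their values were seen. The functions that assign and merge peaks were tested on simulated data, in Python 3.11.15 with pandas 2.3.3. The 3 libraries of a group are separate preparations, but whether they share seedlings is not given in the sources used here. PCR reads are not independent molecules.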

Additional observations from a re-analysis of the deposited data

How the results depend on the processing

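The count of Aux/IAA genes with a peak in all 3 lists, 8 of 10 as reported, depended on the window and on peak height. It was 5 with a window of 1000 bp (6.17% of all genes), 3 with peaks of at least 5-fold (2.09%) and 0 with peaks of at least 10-fold (0.117%). List 1 had no peak of 10-fold at these genes, its highest being 7.15. With peaks of at least 10-fold, 3 genes had a peak in at least 2 lists (1.77% of all genes) and 6 in at least 1 (10.0%). IAA29 had no peak within 2000 bp. The nearest-gene rule and a score of at least 100 each gave 6 genes in all 3 lists (5.64% and 5.31% of all genes).

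With each replicate left out in turn, 8 to 10 genes had a peak in both of the lists left. Without replicates 1, 2 and 3 the counts were 10, 8 and 8, against 32.8%, 15.4% and 19.4% of all genes. In at least 1 of the lists left it was 10 each time, against 68.2%, 52.5% and 66.4%. Regions of all 3 lists numbered 7 instead of 8 with summits within 200 bp. Of the other Aux/IAA genes, 5 instead of 3 had peaks in all 3 lists with a window of 5000 bp, as the share of all genes went to 22.0%, against 13.6% with 3000 bp. Nearness to transcription starts was not run, since no strand was used. No paired analysis was possible because each list already sets 1 PIF1 library against 1 wild-type library, and tag counts of wild type were not used here. Each height rests on 1 library pair, and in lists 1 and 3 the authors' false discovery rates leave single peaks uncertain. The same holds for many list 2 peaks, since only 11 of the 28 had a rate of 5% or less and the highest was 60.16%.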
